A study of Rattus norvegicus with 16 samples.

Results

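The genes described here are 45 genes of the cell cycle and mitosis, which were found by their gene symbols among the 21021 genes listed for each sample of dorsal root ganglion (DRG) tissue. All 45 were listed once each, none was at 0 FPKM (fragments scaled to transcript length and library size) in all samples, and all 45 passed the filter on low expression, so every member was tested. The rule is a list of names and uses no measured value, but the names were chosen with earlier results of these data known.

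RNA sequencing was made in adult female Sprague-Dawley rats, in which Walker 256 mammary carcinoma cells were put into the left tibia (tumor cell implantation, TCI), and in sham-operated rats. The sham rats are given PBS in the sample labels and boiled tumor cells in the methods of the study. DRGs of the levels L3 to L5 on the operated side of 1 rat were pooled as 1 sample. The 4 groups were sham (day 14 after surgery, n = 4), TCI day 1 (n = 4), TCI day 7 (n = 4) and TCI day 14 (n = 4). Sham tissue was taken on day 14 only, so that for TCI days 1 and 7 the implantation and the time after surgery cannot be told apart. Sample 2 of the day 1 group and sample 3 of the day 7 group were left out of the final statistics of the study, and they were left out of the main model here, which leaves n = 3 in those groups. Their values are still given for each gene described in full.

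A dividing cell copies its DNA in S phase and parts the copies in M phase. Before S phase the MCM helicase is loaded onto replication origins, the E2F factors switch on the genes of DNA synthesis, and in G2 and M phase a later set of genes makes the cyclins, kinases and spindle proteins of mitosis. The neurons of an adult DRG do not divide, while its satellite glia, Schwann cells, fibroblasts, vessel cells and resident macrophages can, and so can immune cells that enter the ganglion. In a bulk sample more dividing cells and more RNA per dividing cell cannot be told apart, and the cell type that made a transcript is not known.

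The promoters of the cell cycle genes are shown first, because their short sequence elements differ between the replication genes and the other members. The RefSeq table of promoter windows (rat build GRCr8, 250 bases before and 50 bases after the transcription start, 300 bases in all) held 36 windows of 35 members, with 10 members not matched (Aurkb, Ccna2, Ccne2, E2f1, Foxm1, Mcm4, Racgap1, Rrm2, Tpx2 and Ube2c). Each window was searched on both strands for the E2F site (TTTCGCGC, TTTGGCGC, TTTCCCGC or TTTGCCGC), for the cell cycle genes homology region or CHR (TTTGAA), which is known from promoters of G2 and M phase genes, and for the CCAAT box (CCAAT). Matches of different motifs, or of 1 motif on both strands, may overlap. The 5 windows printed are those of Mcm7 and Mcm3, helicase subunits that were called higher on day 7, of Plk1, a mitotic kinase that was called too, and of Cdk1 and Mki67, a mitotic kinase and a marker of dividing cells that were not called. They run 5′ to 3′ in the direction of transcription, and capitals mark the matches of the 3 motifs. Mcm7 (chr12:22163129-22163428, minus strand) and Mcm3 (chr9:30733697-30733996, minus strand) hold E2F sites and CCAAT boxes, and no CHR. In Mcm7 an E2F site and a CCAAT box overlap and form 1 run of capitals. Plk1 (chr1:186147408-186147707, plus strand) and Mki67 (chr1:199952544-199952843, minus strand) hold the CHR with CCAAT boxes and no E2F site, and in Mki67 a CHR and a CCAAT box overlap. Cdk1 (chr20:19265043-19265342, plus strand) holds all 3. The other members called higher on day 7 that have a window are not printed. Of these, Birc5 holds a CHR and a CCAAT box, Kif20a CCAAT boxes only and Tk1 none of the 3 motifs.
Mcm7: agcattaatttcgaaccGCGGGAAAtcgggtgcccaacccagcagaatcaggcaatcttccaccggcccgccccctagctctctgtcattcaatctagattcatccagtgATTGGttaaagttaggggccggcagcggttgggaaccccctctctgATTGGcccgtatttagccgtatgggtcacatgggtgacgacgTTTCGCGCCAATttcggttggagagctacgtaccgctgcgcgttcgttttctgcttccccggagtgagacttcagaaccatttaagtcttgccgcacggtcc
Mcm3: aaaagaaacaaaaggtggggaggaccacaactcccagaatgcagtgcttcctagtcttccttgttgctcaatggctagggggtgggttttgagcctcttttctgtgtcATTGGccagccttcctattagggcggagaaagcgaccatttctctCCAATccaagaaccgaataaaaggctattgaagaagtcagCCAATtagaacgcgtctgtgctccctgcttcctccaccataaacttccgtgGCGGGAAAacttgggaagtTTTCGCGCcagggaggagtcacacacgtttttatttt
Plk1: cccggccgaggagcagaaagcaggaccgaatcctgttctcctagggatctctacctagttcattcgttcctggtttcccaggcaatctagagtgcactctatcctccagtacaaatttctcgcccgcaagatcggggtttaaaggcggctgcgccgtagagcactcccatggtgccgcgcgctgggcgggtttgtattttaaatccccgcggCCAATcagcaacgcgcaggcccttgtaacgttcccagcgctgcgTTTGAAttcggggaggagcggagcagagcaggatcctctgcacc
Mki67: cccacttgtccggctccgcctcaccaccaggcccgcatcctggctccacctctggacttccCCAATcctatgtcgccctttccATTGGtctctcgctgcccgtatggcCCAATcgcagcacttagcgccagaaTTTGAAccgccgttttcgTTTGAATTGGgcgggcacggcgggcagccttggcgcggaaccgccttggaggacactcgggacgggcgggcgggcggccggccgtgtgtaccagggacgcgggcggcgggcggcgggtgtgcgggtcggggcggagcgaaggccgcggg
Cdk1: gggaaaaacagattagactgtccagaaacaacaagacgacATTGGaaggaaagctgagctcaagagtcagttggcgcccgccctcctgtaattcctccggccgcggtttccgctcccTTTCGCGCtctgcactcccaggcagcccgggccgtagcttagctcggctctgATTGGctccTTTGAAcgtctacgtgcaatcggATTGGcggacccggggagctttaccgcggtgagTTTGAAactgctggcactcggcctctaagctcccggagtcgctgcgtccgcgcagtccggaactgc

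The E2F site was found in 7 of the 36 member windows (19.4%), those of Mcm2, Mcm3, Mcm5, Mcm6, Mcm7, Tyms and Cdk1, against 2.14% of the 33469 windows of all genes. Of the 6 windows of the replication licensing genes, 5 held it (83.3%), and of the other 30 member windows 2 held it (6.67%). The CHR had the opposite spread, with 1 of 6 licensing windows (16.7%), 18 of the 30 others (60%) and 18.3% of all windows. CCAAT boxes were found in 23 of 36 member windows (63.9%) and in 37.5% of all windows. A match is a description of these letters and was not tested as a binding site.

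**Figure D1:**
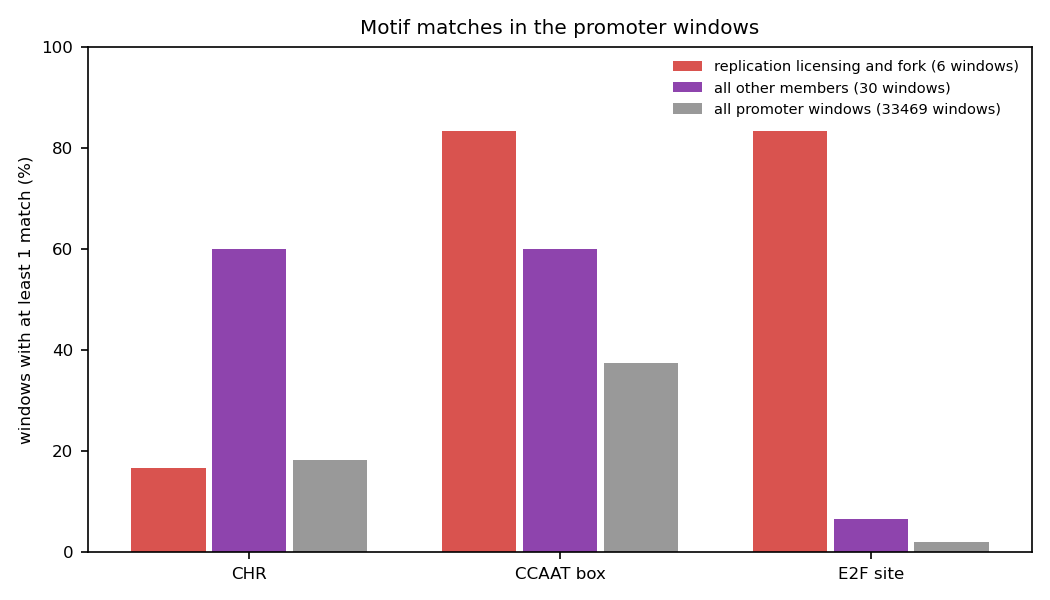
Share of promoter windows with at least 1 match (y axis, percent) for the 3 motifs (x axis), in the 6 windows of replication licensing and fork genes, the 30 windows of the other members and all 33469 windows. The E2F bar reaches 83.3% in the licensing genes, 6.67% in the other members and 2.14% in all windows, and the CHR bar 16.7%, 60% and 18.3%.

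In the sham DRG the members were low. Their mean level ranged from 0.15 FPKM (Bub1b) to 23.6 FPKM (Pcna), with a median of 1.14 FPKM, and 19 of 45 were under 1 FPKM. The 7 members at 4 FPKM or more were Pcna, Aurka, Racgap1, E2f1, Mcm4, Mcm7 and Ccne1, and the mitotic genes proper lay mostly below them. On day 1 after TCI the ratio of the group mean to the sham mean had a median of 0.925 over the members, from 0.547 (Nusap1) to 1.37 (Ndc80). On day 7 the median ratio was 1.74, from 0.995 (Ccne1) to 3.61 (Aurkb), and 16 members were at 2 or more. On day 14 the median ratio was 1.45, from 0.939 (Racgap1) to 3.07 (Aurkb), and 8 members were at 2 or more. These ratios were not summarized over all genes, so the counts at 2 or more have no share of all genes beside them.

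No member passed the thresholds of the study (absolute log2 fold change of at least 1 and adjusted p of at most 0.001) in any comparison. The test was limma on log2(FPKM + 1) with Benjamini-Hochberg adjustment over 16790 genes, and the same thresholds called 0% of all genes on day 1 against sham, 1.43% on day 7, 0.459% on day 14, 0.703% between day 7 and day 1 and 0.0179% between day 14 and day 7. At an adjusted p of at most 0.05 with no limit on the fold change, 7 of 45 members were higher on day 7 than in sham (Mcm7, Mcm3, Plk1, Kif20a, Birc5, Ccna2 and Tk1) and 0 were lower, beside 13.1% of all genes called higher. On day 14 there were 2 (Mcm7 and Plk1), beside 10.4% of all genes. Day 1 gave 0 of 45, beside 0% of all genes. The members called, 7 and 2 of 45, thus made up a share near that of all genes on day 7 and under it on day 14. The count of members called moved with single samples. On day 7 it was 1 without sample 1 of day 7 and also 1 without sample 2, 2 without sample 1 or sample 2 of sham, 4 without sample 3 or sample 4 of sham, 12 without sample 3 of day 14, 17 without sample 4 of day 7 and 22 without sample 2 of day 14, the sample that stood highest in most members. On day 14 it was 0 without any 1 of the sham samples, 1 without any 1 of the day 1 samples of the model, sample 1 of day 7 or sample 2 of day 14, and 6 without sample 3 of day 14. At an unadjusted p under 0.05 the members numbered 0 on day 1 (5.1% of all genes), 23 on day 7 (29.3%) and 10 on day 14 (28.1%).

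The direction of the members was less mixed than their calls. Fitted log2 fold changes were above 0 for 43 of 45 members on day 7 and for 41 on day 14, with medians of 0.36 and 0.23, beside medians of 0.04 and 0.03 over all genes tested. On day 1 the median was -0.03 and 16 of 45 were above 0. Of all 16790 genes tested, 10168 were above 0 on day 7, 9651 on day 14 and 8458 on day 1. Members that rise in the same rats are not separate observations. Under quantile normalization, which lowered the median of all genes on day 7 to -0.07, 36 of 45 members were above 0 on day 7 with a median of 0.17 and 31 on day 14 with a median of 0.10. Since both contrasts share the sham samples, their medians are not independent of each other.

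**Figure D2:**
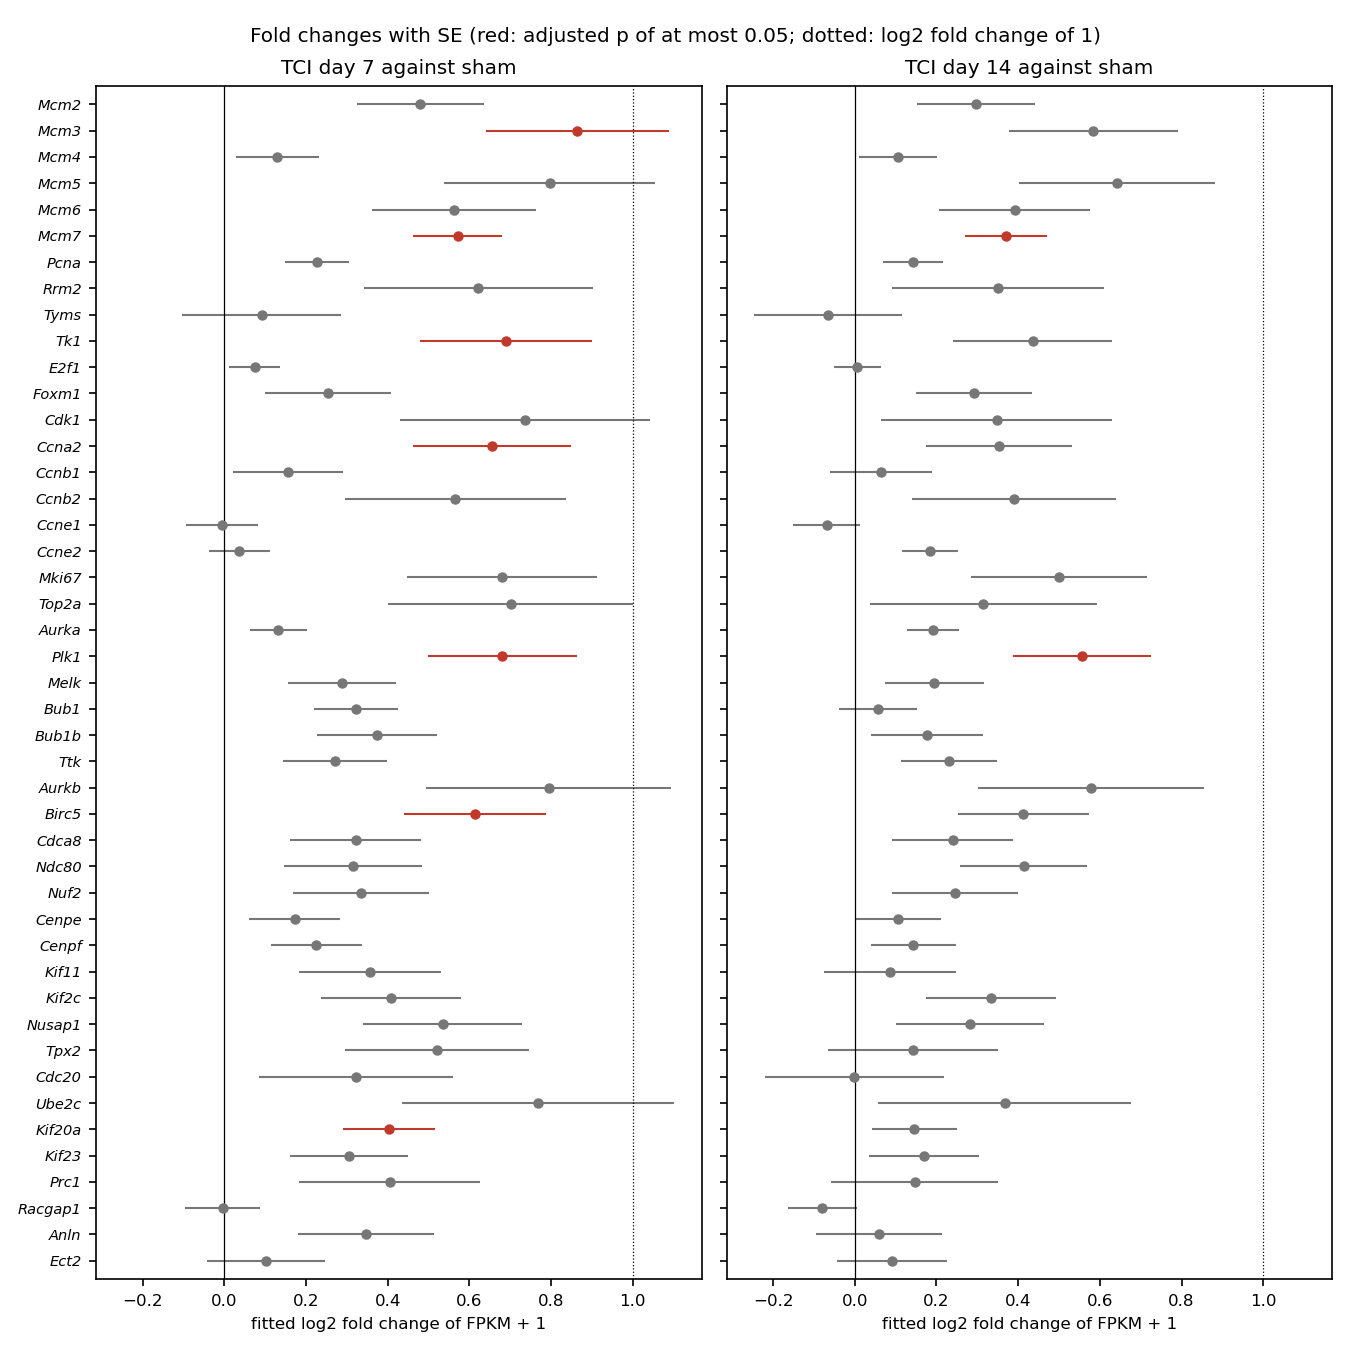
Fitted log2 fold change of FPKM + 1 (x axis) with its SE for the 45 members (y axis, in order of role) on TCI day 7 and on TCI day 14 against sham. Red marks an adjusted p of at most 0.05 (limma), which holds for 7 members on day 7 and 2 on day 14, and no member reaches the dotted line at a log2 fold change of 1.

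The higher levels were uneven between rats. The share of members above every sham sample exceeded that of all genes in samples 1, 2 and 4 of days 7 and 14, and was below it in sample 3 of each. Against the highest sham sample, 41 of 45 members were higher in sample 1 of TCI day 7, 42 in sample 2, 14 in sample 3 and 21 in sample 4. All genes tested gave 39%, 39.2%, 36.2% and 42% in these samples. On day 14 the members above every sham sample numbered 33, 42, 9 and 24 in samples 1 to 4, where all genes gave 37.9%, 36.3%, 37.6% and 38.9%. Samples 1 to 4 of day 1 had 6, 5, 7 and 5 such members, where all genes gave 20.4%, 27.2%, 24.9% and 22.3%. Of the 45 members, 24 had their highest value of all 16 samples in sample 2 of day 14 and 15 in the same-numbered sample of day 7. The summed FPKM of the members was 182 in the former and 175 in the latter, 144 in sample 1 of day 7, and 106 to 121 in the other 5 late samples, against 101 to 111 in sham. The median difference of the members from the sham mean was -0.045 on the log2(FPKM + 1) scale in sample 3 of day 14, where sample 2 had 0.679.

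**Figure D3:**
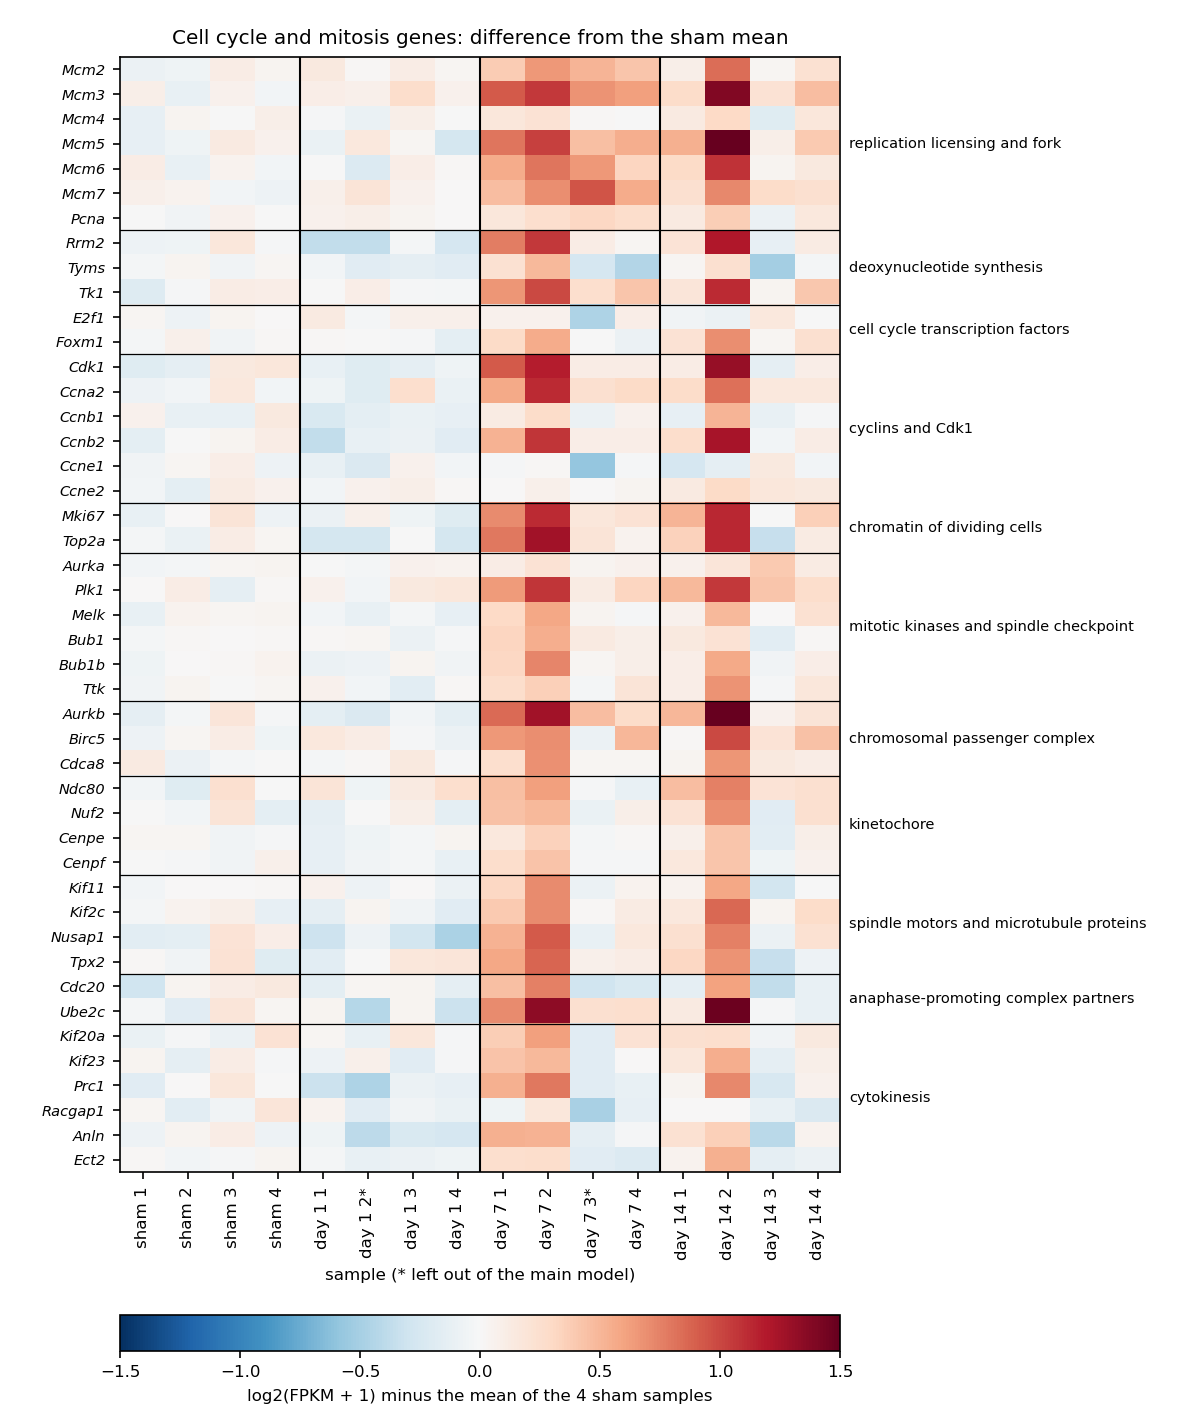
Difference of log2(FPKM + 1) from the mean of the 4 sham samples (color, from blue for lower to red for higher) for the 45 members (rows, by role) in the 16 samples (columns, with stars for the 2 samples left out of the main model). Samples 1 and 2 of day 7 and sample 2 of day 14 are red over most rows, with 41, 42 and 42 members above every sham sample, while the MCM rows other than Mcm4 are red in all 4 samples of day 7.

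Replication licensing and fork genes were the role with the most even pattern on day 7. On day 14 the pattern was less even, with 6, 7, 2 and 7 of the 7 genes above every sham sample in samples 1 to 4. The role comprises the 6 subunits of the MCM helicase, which unwinds DNA at the replication fork, and Pcna, the sliding clamp that holds the DNA polymerases. Of the 7 genes, 2 were called higher on day 7 and 1 on day 14, and 6 of 7 (all but Mcm4) lay above every sham sample in all 4 samples of day 7, the sample left out of the model included. Among the other 38 members this held for 7 (Tk1, Ccna2, Aurka, Plk1, Bub1, Aurkb and Ube2c). This split by role was seen in the values and was not tested. Over 16 samples, 13 of 45 members (28.9%) thus had no overlap between day 7 and sham, beside 17.3% of all genes, and over the 14 samples of the model 21 of 45 (46.7%), beside 22.6%. On day 14, 5 members did not overlap with sham (Mcm3, Mcm7, Ccne2, Aurka and Plk1, 11.1%), beside 13.1%.

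Mcm7 was listed at 4.69, 4.61, 4.24 and 4.12 FPKM in the sham samples, at 4.68, 5.20, 4.66 and 4.45 on day 1, at 6.47, 7.77, 9.39 and 6.93 on day 7 and at 5.38, 7.95, 5.54 and 5.41 on day 14. Every sample of days 7 and 14 lay above every sham and every day 1 sample. The mean went from 4.42 ± 0.278 FPKM in sham (SD, n = 4) to 7.06 ± 0.659 on day 7 (SD, n = 3) and 6.07 ± 1.26 on day 14 (SD, n = 4). The log2 fold change against sham was 0.57 on day 7 (SE 0.11, adjusted p = 0.00358 by limma) and 0.37 on day 14 (SE 0.10, adjusted p = 0.0296). The day 7 call of Mcm7 held under all 10 alternatives and with each of the 14 samples left out, with log2 fold changes of 0.43 to 0.664, and it was the sole member for which this was so. Its day 14 call was lost with all 16 samples (adjusted p = 0.0625 by limma), with only the 2 groups (0.0948), with quantile normalization (0.0673) and without any 1 of the sham samples (adjusted p = 0.0521 to 0.0752).

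Mcm3 was at 1.24, 0.95, 1.2 and 1.05 FPKM in sham, at 1.25, 1.23, 1.53 and 1.2 on day 1, at 2.98, 3.39, 2.35 and 2.23 on day 7 and at 1.54, 4.52, 1.44 and 1.91 on day 14. All 8 late samples were above the sham samples, with sample 3 of day 14 under the highest sample of day 1. Its mean was 1.11 ± 0.134 in sham (SD, n = 4) and 2.87 ± 0.588 on day 7 (SD, n = 3), and the log2 fold change was 0.86 (SE 0.22, adjusted p = 0.0194 by limma). Without sample 2 of sham, sample 1 of day 7 or sample 2 of day 7 the adjusted p was 0.0512, 0.0661 and 0.0825. Mcm2 was at 2.42 to 2.91 FPKM in sham, 3.73 to 4.68 on day 7 and 2.71 to 5.48 on day 14. Mcm5 was at 0.96 to 1.33 in sham, 1.91 to 3.35 on day 7 and 1.26 to 5.28 on day 14, and Mcm6 at 1.03 to 1.37, 1.75 to 2.84 and 1.27 to 3.67. These 3 genes did not overlap between sham and day 7, while on day 14 sample 3 was in the sham range for each, as was sample 1 for Mcm2. None of them was called, with an adjusted p of 0.0546 for Mcm2, 0.0543 for Mcm5 and 0.0764 for Mcm6 on day 7 (limma). Mcm4, the remaining helicase subunit, overlapped throughout, with 4.17 to 5.01 FPKM in sham and 4.64 to 5.58 on day 7. Pcna, the highest of all members, was at 22.7 to 24.7 FPKM in sham, 26.6 to 29.4 on day 7 and 22.1 to 30.6 on day 14, a log2 fold change of 0.23 on day 7 (SE 0.08, adjusted p = 0.070 by limma).

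Genes of deoxynucleotide synthesis make the building blocks of new DNA, and 1 of 3 was called on day 7. Tk1, thymidine kinase, was at 1.31, 1.61, 1.84 and 1.82 FPKM in sham, at 1.62, 1.82, 1.61 and 1.59 on day 1, at 3.16, 4.25, 2.15 and 2.52 on day 7 and at 1.98, 4.73, 1.72 and 2.48 on day 14. Day 7 did not overlap with sham, and sample 3 of day 14 did. The log2 fold change of Tk1 on day 7 was 0.69 (SE 0.21, adjusted p = 0.041 by limma). The call was lost with all 16 samples (adjusted p = 0.0558 by limma), without sample 2 of day 7 (log2 fold change 0.54, adjusted p = 0.165) and without any 1 of the sham samples (adjusted p = 0.0618 to 0.104). It was also lost with no filter (adjusted p = 0.0565), quantile normalization (0.0961) and TPM (0.0522), and without sample 1 of day 7, sample 4 of day 14 or any 1 of the day 1 samples of the model (0.0526 to 0.0943). Rrm2, the regulated subunit of ribonucleotide reductase, was at 2.07, 2.1, 2.65 and 2.20 FPKM in sham, at 4.54, 5.78, 2.52 and 2.32 on day 7 and at 2.74, 6.45, 1.99 and 2.53 on day 14. Samples 1 and 2 of day 7 and sample 2 of day 14 stood high, and of the others sample 1 of day 14 alone exceeded the highest sham sample (log2 fold change 0.62 on day 7, SE 0.28, adjusted p = 0.161 by limma). Tyms, thymidylate synthase, was at 2.71 to 2.97 FPKM in sham and spread below and above it on day 7, from 1.83 to 4.39.

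Of the transcription factors, none of 2 was called. E2f1, an activator of S phase genes, was at 6.36 to 6.97 FPKM in sham, 7.05 to 7.26 on day 7 over the 3 samples of the model with sample 3 at 4.61, and 6.30 to 7.64 on day 14 (log2 fold change 0.08 on day 7, SE 0.06, adjusted p = 0.471 by limma). Foxm1, which drives G2 and M phase genes, was at 1.06 to 1.25 FPKM in sham. It was at 1.62, 2.15, 1.14 and 1.02 in samples 1 to 4 of day 7 and at 1.48, 2.46, 1.18 and 1.52 in those of day 14, again highest in sample 2 of each day.

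Among the cyclins and Cdk1, 1 of 6 genes was called on day 7. Ccna2, the cyclin A of S phase and early mitosis, was at 0.81, 0.86, 1.13 and 0.85 FPKM in sham, at 0.82, 0.68, 1.28 and 0.78 on day 1, at 1.83, 3.14, 1.25 and 1.32 on day 7 and at 1.31, 2.37, 1.13 and 1.13 on day 14. Day 7 lay above sham in all 4 samples, and on day 14 samples 3 and 4 equalled the highest sham sample. Its log2 fold change on day 7 was 0.66 (SE 0.19, adjusted p = 0.0357 by limma). Without sample 2 of day 7 it was 0.425 (adjusted p = 0.159 by limma), and with all 16 samples 0.55 (adjusted p = 0.054). The call was also lost with quantile normalization (0.43, adjusted p = 0.0945) and without sample 1, 2 or 4 of sham or sample 1 of day 7 (adjusted p = 0.0721 to 0.0832).

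Cdk1, the kinase that drives entry into mitosis, was at 0.95, 1.01, 1.45 and 1.48 FPKM in sham, at 3.19, 4.0, 1.38 and 1.38 on day 7 and at 1.39, 4.48, 1.02 and 1.36 on day 14. Samples 1 and 2 of day 7 and sample 2 of day 14 stood far above sham, and all other late samples were inside the sham range. Ccnb2, a cyclin B partner of Cdk1, was at 0.85, 1.03, 1.11 and 1.2 FPKM in sham, at 1.93, 3.31, 1.19 and 1.19 on day 7 and at 1.45, 3.80, 0.98 and 1.21 on day 14. Neither was called, with log2 fold changes on day 7 of 0.74 for Cdk1 (SE 0.31, adjusted p = 0.128) and 0.57 for Ccnb2 (SE 0.27, adjusted p = 0.185, both by limma). Ccnb1 was at 1.37 to 1.82 FPKM in sham and 1.41 to 2.09 on day 7. Of the cyclins of the G1/S transition, Ccne1 did not share the pattern of the high samples. Ccne1 was at 3.81 to 4.43 FPKM in sham and 4.04 to 4.13 in the 3 day 7 samples of the model, with 2.39 in sample 3. Ccne2 was at 1.36 to 1.86 in sham, 1.62 to 1.75 on day 7 and 1.87 to 2.19 on day 14. It was highest in sample 2 of each late day, but day 7 stayed in the sham range and all samples of day 14 lay above it.

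Mki67 and Top2a coat and untangle the chromosomes of dividing cells, and Mki67 is the usual marker of proliferation. Mki67 was at 0.56, 0.70, 0.93 and 0.60 FPKM in sham, at 0.59, 0.78, 0.62 and 0.49 on day 1, at 1.76, 2.66, 0.91 and 0.97 on day 7 and at 1.41, 2.71, 0.69 and 1.17 on day 14. Top2a, topoisomerase II alpha, was at 0.68, 0.59, 0.84 and 0.74 in sham, at 0.43, 0.42, 0.70 and 0.43 on day 1, at 1.95, 3.09, 0.96 and 0.78 on day 7 and at 1.18, 2.74, 0.35 and 0.86 on day 14. For both genes the rats of 1 time point ranged from the sham level to far above it. The log2 fold changes on day 7 were 0.68 for Mki67 (SE 0.23, adjusted p = 0.066) and 0.70 for Top2a (SE 0.30, adjusted p = 0.139), and on day 14 0.50 for Mki67 (SE 0.21, adjusted p = 0.147) and 0.32 for Top2a (SE 0.28, adjusted p = 0.499, all by limma). Leaving out sample 2 of day 14 took the day 14 value of Top2a to 0.04.

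**Figure D4:**
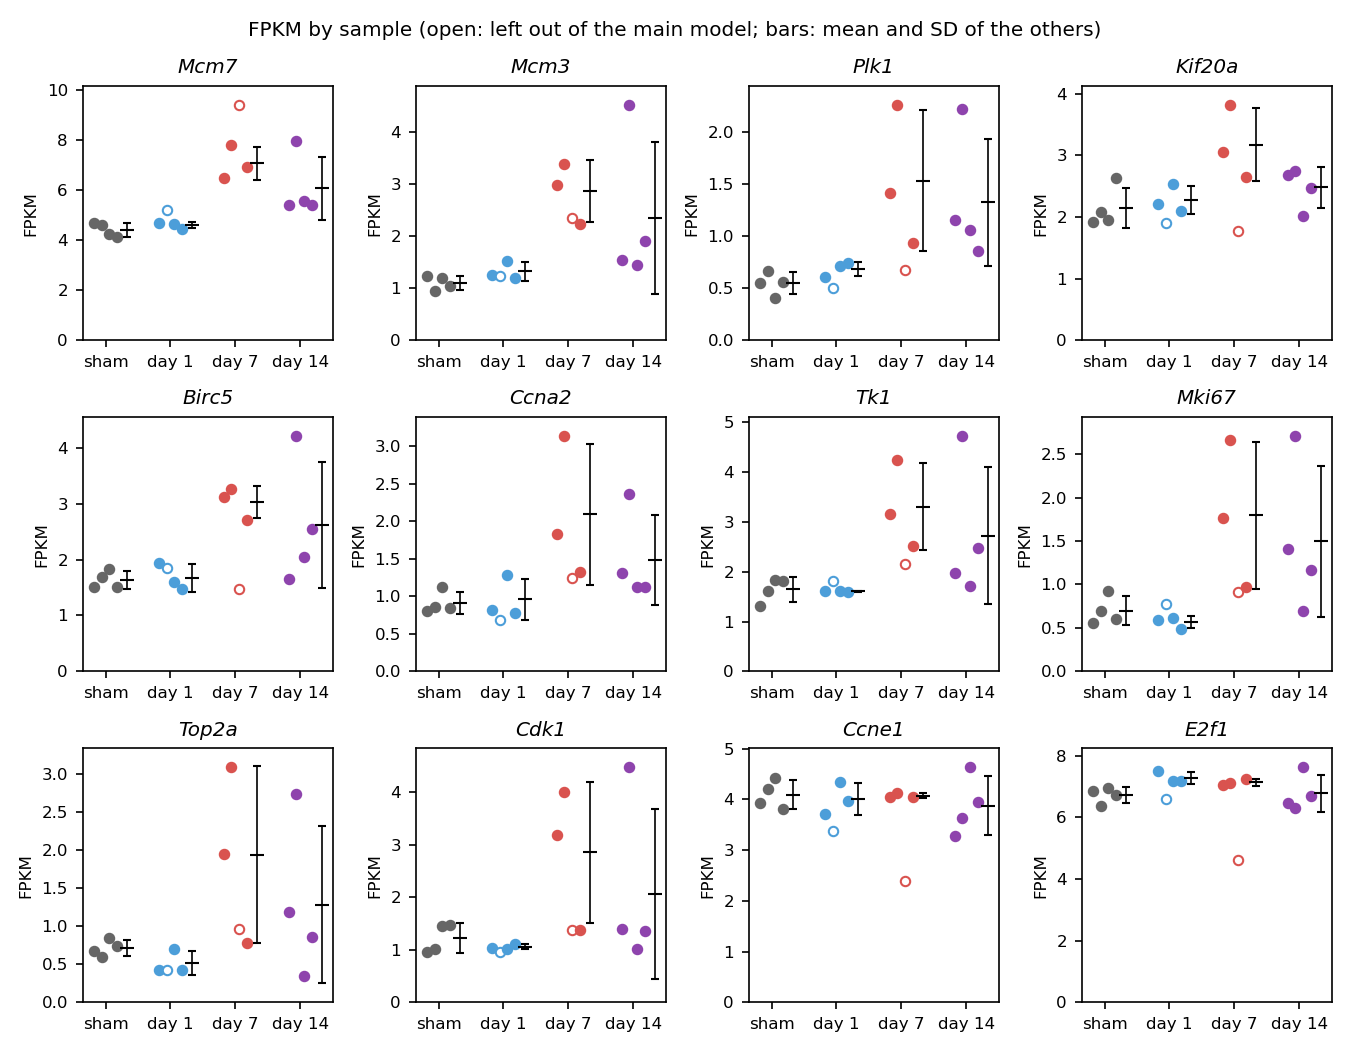
FPKM (y axis, from 0) of 12 members in each sample of the 4 groups (x axis), with open circles for the 2 samples left out of the main model and bars for the mean and SD of the others. On day 7 Mcm7 sits between 6.47 and 9.39 FPKM, above all sham samples. Cdk1, Mki67 and Top2a are highest in samples 1 and 2 of day 7 and sample 2 of day 14. Ccne1 and E2f1 stay near the sham level but for a low sample 3 of day 7.

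Of the mitotic kinases and spindle checkpoint genes, 1 of 6 was called on day 7 and on day 14. Plk1, polo-like kinase, which acts from centrosome maturation to cytokinesis, was at 0.55, 0.67, 0.41 and 0.56 FPKM in sham, at 0.61, 0.50, 0.71 and 0.74 on day 1, at 1.41, 2.26, 0.68 and 0.93 on day 7 and at 1.16, 2.22, 1.06 and 0.86 on day 14. All 8 late samples lay above sham, sample 3 of day 7 by a narrow margin (0.68 against 0.67 FPKM) and below samples 3 and 4 of day 1. The log2 fold change was 0.68 on day 7 (SE 0.18, adjusted p = 0.0229) and 0.56 on day 14 (SE 0.17, adjusted p = 0.0472, both by limma). With all 16 samples both calls were lost (adjusted p = 0.058 and 0.0813 by limma), as they were with quantile normalization (0.0529 and 0.0757). The day 7 call of Plk1 was also lost without sample 1 or 3 of sham or sample 1 or 2 of day 7 (adjusted p = 0.0505 to 0.109). Its day 14 call was lost with only the 2 groups (adjusted p = 0.0726), with no filter (adjusted p = 0.0615) and with 10 of the 14 samples left out singly (adjusted p = 0.0616 to 0.114). Aurka, the spindle pole kinase, was the highest of the mitotic members, with 10.6 to 11.3 FPKM in sham, 11.3 to 12.8 on day 7 and 11.4 to 14.6 on day 14, where sample 3 was the highest. Bub1b, a checkpoint protein, was at 0.10 to 0.19 in sham and 0.17 to 0.91 on day 7. Bub1 was at 0.75 to 0.81 in sham and 0.91 to 1.62 on day 7, Ttk at 0.19 to 0.27 and 0.21 to 0.58, and Melk at 0.19 to 0.33 and 0.27 to 0.93. None of these 5 was called, and the highest day 7 value was that of sample 2 for each.

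The chromosomal passenger complex, which corrects the attachment of chromosomes to the spindle, had 1 of 3 genes called on day 7. Birc5, survivin, was at 1.5, 1.68, 1.83 and 1.51 FPKM in sham, at 1.94, 1.84, 1.59 and 1.47 on day 1, at 3.11, 3.26, 1.48 and 2.71 on day 7 and at 1.66, 4.21, 2.04 and 2.55 on day 14. The 3 samples of the day 7 model were above sham, while the sample left out was below it. Its log2 fold change on day 7 was 0.61 (SE 0.17, adjusted p = 0.0292 by limma) and with all 16 samples 0.44 (adjusted p = 0.123). The call was also lost with quantile normalization (0.39, adjusted p = 0.102) and without sample 1, 2 or 4 of sham or sample 1 or 2 of day 7 (0.57 to 0.62, adjusted p = 0.058 to 0.0986). Aurkb, the kinase of the complex, had the highest ratio of all members on both late days. It was at 0.31, 0.40, 0.63 and 0.41 FPKM in sham, at 0.29, 0.23, 0.39 and 0.29 on day 1, at 1.59, 2.42, 0.97 and 0.73 on day 7 and at 1.02, 3.22, 0.50 and 0.64 on day 14. The spread was wide, and Aurkb was not called (log2 fold change 0.79 on day 7, SE 0.30, adjusted p = 0.094 by limma). Cdca8, borealin, was at 1.91 to 2.41 FPKM in sham and reached 3.98 on day 7 and 3.90 on day 14, each time in sample 2, with the other late samples from 2.17 to 2.70.

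Kinetochore, spindle and anaphase genes repeated the pattern of the high samples, with none called against sham. Ndc80, Nuf2, Cenpe and Cenpf link chromosomes to microtubules, and for all 4 the samples 1 and 2 of day 7 and 1 and 2 of day 14 were above every sham sample, while samples 3 and 4 of day 7 and 3 of day 14 were not. Ndc80 was at 0.38 to 0.85 FPKM in sham, at 1.15, 1.4, 0.55 and 0.45 on day 7 and at 1.16, 1.65, 0.81 and 0.85 on day 14. Of the spindle motors and microtubule proteins, Kif11 was at 0.67 to 0.74 in sham and at 1.13, 1.80, 0.61 and 0.77 on day 7, Kif2c was at 0.21 to 0.40 and 0.33 to 1.15, and Tpx2 was at 1.18 to 1.87 in sham and 1.61 to 3.53 on day 7. Ube2c, the ubiquitin-conjugating enzyme that works with the anaphase-promoting complex, was at 1.46, 1.23, 1.84 and 1.56 FPKM in sham, at 1.58, 0.87, 1.58 and 1.01 on day 1, at 3.11, 5.37, 1.97 and 1.99 on day 7 and at 1.75, 5.94, 1.49 and 1.32 on day 14. Its log2 fold change on day 14 was 0.37 (SE 0.31, adjusted p = 0.477 by limma) and fell to 0.00 without sample 2. Cdc20, an activator of the same complex, was at 1.26 to 2.07 FPKM in sham and at 2.79, 3.68, 1.26 and 1.37 on day 7.

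Among the cytokinesis genes 1 of 6 was called on day 7. Kif20a, a kinesin of the central spindle, was at 1.92, 2.09, 1.95 and 2.63 FPKM in sham, at 2.21, 1.91, 2.53 and 2.1 on day 1, at 3.06, 3.82, 1.78 and 2.65 on day 7 and at 2.69, 2.74, 2.02 and 2.47 on day 14. Sample 4 of day 7 was just above the highest sham sample, and sample 3 was below all of sham. The log2 fold change on day 7 was 0.40 (SE 0.11, adjusted p = 0.0274 by limma), and the call was lost with all 16 samples (0.26, adjusted p = 0.214), quantile normalization (0.18, adjusted p = 0.16), TPM (adjusted p = 0.0611), the replicate block (adjusted p = 0.0585) and without sample 1, 2 or 3 of sham or sample 1 or 2 of day 7 (adjusted p = 0.0631 to 0.13). Racgap1 (7.93 to 10.2 FPKM in sham, 6.09 to 10.1 on day 7) did not stand out in any late sample. Prc1 was at 1.21 to 1.78 in sham and 1.2 to 3.30 on day 7, Anln at 0.49 to 0.70 and 0.43 to 1.28, Kif23 at 0.37 to 0.62 and 0.33 to 1.10, and Ect2 at 0.36 to 0.43 and 0.21 to 0.67. In samples 3 and 4 of day 7 these 4 genes were in or below the range of sham.

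Day 7 was also compared with day 1, a comparison of 2 implanted groups whose means hold no sham sample. The error variance still came from the model of all 4 groups, sham included. The day 7 samples are those compared with sham, so the 2 contrasts are not independent of each other. An adjusted p of at most 0.05 was met by 2 members, Mcm7 (log2 fold change 0.52, SE 0.12, adjusted p = 0.0135) and Nusap1 (0.89, SE 0.21, adjusted p = 0.0173, both by limma), beside 8.04% of all genes called higher. Nusap1, a microtubule bundling protein, was at 0.75, 0.76, 1.25 and 1.09 FPKM in sham, at 0.57, 0.85, 0.61 and 0.40 on day 1, at 1.80, 2.70, 0.80 and 1.18 on day 7 and at 1.30, 2.30, 0.83 and 1.28 on day 14. On day 1 it had the lowest ratio to sham of all members, and sample 3 of day 7, which the model leaves out, lay below sample 2 of day 1, which it leaves out too. Nusap1 lost its call with all 16 samples (log2 fold change 0.66, adjusted p = 0.0502 by limma), without sample 4 of day 1 (0.83, adjusted p = 0.0703), without sample 1 of day 7 (0.90, adjusted p = 0.054), without sample 2 of day 7 (0.70, adjusted p = 0.0798) and with the replicate number as a block (0.79, adjusted p = 0.0589). Mcm7 lost it without sample 4 of day 1 (0.50, adjusted p = 0.0524) and without sample 2 of day 7 (0.46, adjusted p = 0.0661). At an unadjusted p under 0.05 there were 29 members, beside 22.6% of all genes, and 29 members (64.4%) were higher on day 7 without overlap over the 14 samples, beside 22.9%. Over all 16 samples this fell to 18 (40%), beside 14.3%. The median log2 fold change was 0.40 over the members and 0.04 over all genes. From day 7 to day 14 no member was called, beside 0.125% of all genes, 2 had an unadjusted p under 0.05 (9.92% of all genes), and the median was -0.17 over the members and -0.02 over all genes.

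A further 77 genes of the cell cycle were listed by function, of which 75 were in the tables and 74 were tested. On day 7, 7 were called higher at an adjusted p of at most 0.05 and 0 lower, and on day 14 3 were called higher, with medians of 0.19 and 0.14. Both counts, 7 and 3 of 74, are smaller shares than the 13.1% and 10.4% of all genes called higher on these days. The 7 were the helicase loaders Cdc6 and Cdt1, the kinase Cdk2, the DNA ligase Lig1, the transcription factor E2f2 and the CDK inhibitors Cdkn1a and Cdkn1c, named after their values were seen. Cdkn1a, p21, which halts the cycle, had the highest fold change of these on the log2(FPKM + 1) scale, though not in the ratio of the means, from 3.98 ± 0.917 FPKM in sham (SD, n = 4) to 7.72 ± 0.142 on day 7 (SD, n = 3), a log2 fold change of 0.83 (SE 0.21, adjusted p = 0.0175 by limma). It was at 7.62, 7.65, 17.4 and 7.88 in samples 1 to 4 of day 7, all above the highest sham sample (5.23). By list, CDK inhibitors had 2 of 6 genes called on day 7, origin firing and polymerases 3 of 20, G1 cyclins and kinases 1 of 6, pocket proteins and other E2Fs 1 of 10, and mitotic entry control (8), condensin, cohesion and segregation (12) and other mitotic spindle genes (12) had none. The gene with the highest level in each list was not called on day 7. These were Cdkn1b (44.5 ± 2.42 FPKM in sham and 49.3 ± 6.03 on day 7), Cdk4 (37.6 ± 2.09 and 44.1 ± 4.17), Cdc25b (29.9 ± 1.62 and 30.0 ± 1.76), E2f6 (22.3 ± 0.720 and 20.3 ± 0.953), Prim1 (14.9 ± 2.92 and 12.8 ± 0.774), Incenp (11.3 ± 0.717 and 11.9 ± 0.522) and Spag5 (3.48 ± 0.297 and 4.19 ± 0.166, SD with n = 4 and n = 3 throughout).

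Markers of other cell types are given beside these levels. The T cell list (10 genes) had a summed level of 5.85 to 8.68 FPKM in sham, 6.26 to 8.69 on day 1, and 28.8 to 101 and 35.1 to 103 on days 7 and 14, with 9 of 10 genes called higher on both late days at an adjusted p of at most 0.05. Of all genes, 13.1% and 10.4% were called higher on these days. Cd3e, a chain of the T cell receptor complex, was at 0 to 0.12 FPKM in sham and 0 to 0.04 on day 1. It was at 6.94, 11.6, 2.59 and 4.45 in samples 1 to 4 of day 7 and at 3.94, 12.7, 2.93 and 2.89 in those of day 14. Samples 1 and 2 of day 7 and sample 2 of day 14 were highest in Cd3e and in most mitosis genes. Cd4, the highest gene of the list in sham, is also made by rat macrophages. The macrophage list (10 genes) was at 29.9 to 54.9 FPKM in sham, 39.8 to 51.1 on day 1, and 319 to 440 and 166 to 608 on days 7 and 14, with 10 and 8 genes called on the late days. C1qa, its highest gene, was at 84.0, 118, 103 and 102 on day 7 and at 72.0, 175, 41.9 and 49.1 on day 14, against 5.85 to 12.5 in sham. Over the day 7 samples the macrophage genes did not share 1 order, since Cd68, Csf1r, Cx3cr1 and Itgam were lower in samples 3 and 4 than in sample 1. In the mean over its 10 genes the T cell list was at 2.74, 3.13, 1.62 and 2.0 on the log2(FPKM + 1) scale in samples 1 to 4 of day 7, the macrophage list at 4.27, 4.68, 4.51 and 4.28, and the 45 members at 1.75, 1.99, 1.38 and 1.44. On day 14 the T cell list was at 1.915, 3.019, 1.799 and 1.800 and the macrophage list at 3.984, 4.661, 3.204 and 3.640. The members were then at 1.487, 2.028, 1.289 and 1.455. Sample 2 was thus the highest of its day in the T cell list, the macrophage list and the members alike. What part either cell type had in the level of the members was not tested.

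**Figure D5:**
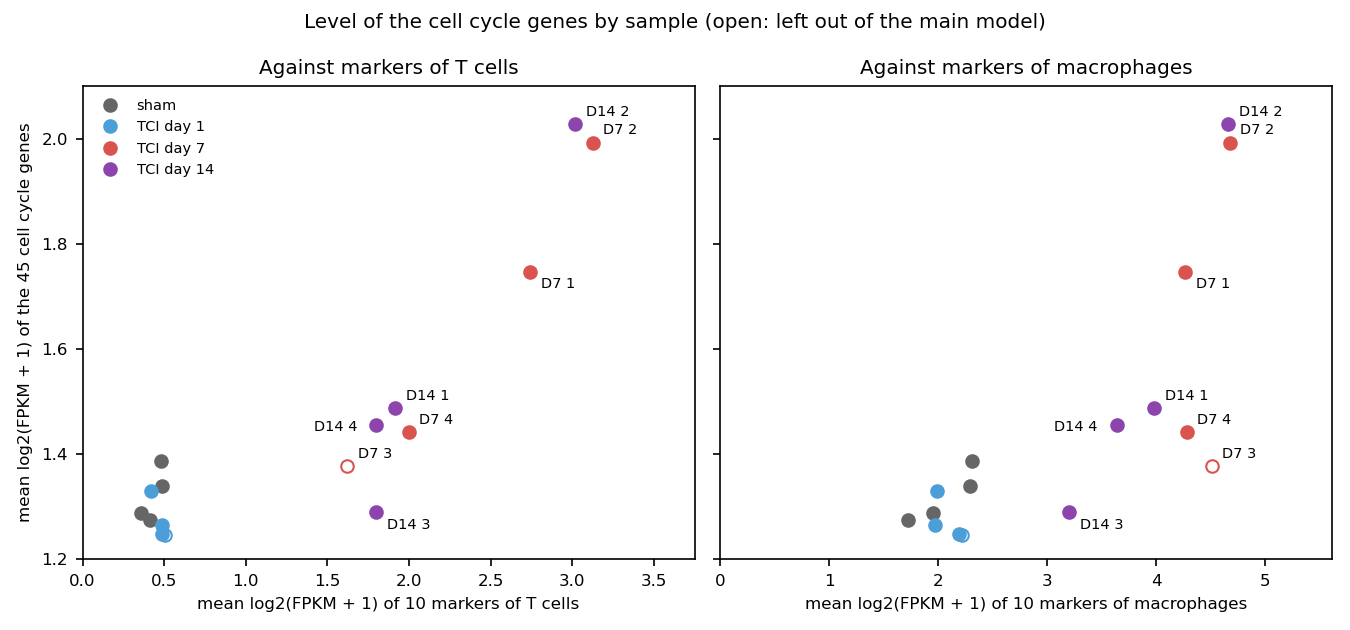
Mean log2(FPKM + 1) of the 45 cell cycle genes (y axis) against that of 10 T cell markers (left, x axis) and 10 macrophage markers (right, x axis) in the 16 samples, colored by group, with open circles for the 2 samples left out of the main model. Samples 1 and 2 of day 7 and 2 of day 14 are highest in the members and in the T cell markers. Sample 2 of day 7 (4.68) and sample 2 of day 14 (4.66) are also highest in the macrophage markers. Sample 3 of day 7 (4.51), which the main model leaves out, follows and has a member level of 1.38.

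Most other lists are given by the range of their summed level in each group. Calls are at an adjusted p of at most 0.05 (limma) against sham, which called 13.1% of all genes higher on day 7 and 10.4% on day 14. Fibroblast genes were at 409 to 586 FPKM in sham, 618 to 803 on day 1, and 882 to 1197 and 327 to 952 on days 7 and 14, with 3 of 6 called higher on day 7 and 1 on day 14. Within day 7, fibroblast genes were at 1197, 1143, 882 and 946 FPKM in samples 1 to 4. Samples 1 and 2, the highest of that day in most members, were thus highest here too. Within day 14, fibroblast genes were at 952 FPKM in sample 1, 674 in sample 2, 327 in sample 3 and 850 in sample 4. There sample 2, the highest in most members, was not the highest. What part fibroblasts had in the level of the members was not tested. Endothelial genes were at 63.4 to 66.8 FPKM in sham, 63.8 to 81.8 on day 1, and 70.6 to 116 and 60.6 to 75.3 on days 7 and 14, with 2 of 8 called higher on day 7 and none on day 14. Satellite glia genes were at 199 to 216 FPKM in sham, 182 to 214 on day 1, and 221 to 544 and 149 to 218 on days 7 and 14, where 1 gene was called higher and 1 lower on day 7 and 1 lower on day 14. The 544 FPKM of sample 3 of day 7 were mostly Glul (469 FPKM). Glia genes shared by satellite and Schwann cells were at 938 to 1186 FPKM in sham, 1084 to 1233 on day 1, and 714 to 1024 and 806 to 948 on days 7 and 14, with 1 of 4 called lower on day 14. Myelin genes were at 8200 to 11020 FPKM in sham, 12260 to 20270 on day 1, and 5904 to 8364 and 6940 to 10760 on days 7 and 14, with none called. The sensory neuron list, which marks the tissue, was at 17980 to 18910 FPKM in sham, 15680 to 18280 on day 1, and 10780 to 15870 and 14770 to 17640 on days 7 and 14, with 5 of 10 genes called lower on day 7 and 4 on day 14. Of all 16790 genes tested, 473 were called lower on day 7 and 436 on day 14. Under quantile normalization these counts were 2386 and 1657, so lower calls depend on the scaling. The list of neutrophils and granulocyte precursors (8 genes) was at 0.28 to 0.63 FPKM in sham, 0.47 to 0.88 on day 1, and 3.48 to 17.5 and 0.48 to 2.2 on days 7 and 14. Of its 3 genes tested, 2 were called higher on day 7 and none on day 14. The precursor genes Elane (0 in 15 of 16 samples) and Mpo (0.14 or less) were at or near 0. S100a8, made by mature neutrophils, was at 0.13 or less in sham, at 0.62, 2.94, 5.05 and 6.82 on day 7 and at 0.12 to 0.99 on day 14. The B cell list summed to 0.46 to 2.42 FPKM over all samples, and Ms4a1 was at 0 in all 4 sham samples. Erythroid genes were at 25.4 to 48.5 FPKM in sham, 39.1 to 128 on day 1, and 9.57 to 24.2 and 42.8 to 83.9 on days 7 and 14. Of the 5 tested, 1 was called lower on day 7 and none on day 14. The epithelial markers, which the implanted carcinoma cells could bring, summed to 78.7 to 92.2 FPKM in sham and 89.8 to 98.1 on day 1. They summed to 54.8 to 84.0 on day 7 and 64.8 to 81.7 on day 14, with none called against sham. Of these markers, Epcam was at 0.21 to 0.68 in sham and 0.17 to 0.58 in the late samples, and Krt18 was at 0.15 or less in every sample. Other genes of the list thus made up most of its sum. Whether tumor cells added to any level was not tested.

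Skeletal muscle genes summed to 22570 FPKM in sample 3 of day 7 and to 552 in sample 4 of sham, against 9.47 to 21.9 in the other 14 samples. Sample 3 of day 7, which the study and the main model leave out, was also the lowest of its group in many members. Among them were E2f1, Ccne1, Racgap1, Mki67, Plk1, Birc5 and Kif20a. It was the highest of its group in Mcm7 and Pcna. The tables hold FPKM with 2 decimals and no read totals, so the fragments behind a level cannot be read from the files used here and no counting interval is given. RSEM shares out reads that fit several genes, and whether a member shares reads with a near copy was not tested.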

How the data were processed

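RNA was measured in L3 to L5 DRGs of 16 rats. Per the labels and the methods of the study, the authors sequenced on a BGISEQ-500, aligned with HISAT and Bowtie2 and quantified with RSEM, and deposited 1 table per sample with FPKM values of 21021 genes. The genome build is not given in the sources used here. FPKM is scaled per sample, so a large change in a few genes moves all others. The files hold no read totals, so no counting interval was computed.

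Levels were tested as log2(FPKM + 1) with limma 3.58.1 in R 4.3.3 (lmFit over all 4 groups, eBayes with trend, Benjamini-Hochberg adjustment), so fold changes of low genes are understated. The model held 14 samples and the 16790 genes with a mean of at least 0.1 FPKM. Steps were tested on simulated data, in which 96 of 100 genes changed by 1.5 on the log2 scale were called at an adjusted p of at most 0.05 on day 7, with 12 unchanged genes called too. A further 100 genes were changed by 3 in the same simulation, and no changed gene was drawn from the lowest levels, where many members lie. Noise was drawn for each gene separately, so a spread shared by many genes in 1 rat was not simulated. The size of 1.5 is above the fitted change of every member, and smaller changes were not simulated. The 45 members and all lists were chosen with earlier results of these data known. By rule every member may be named, those called on day 7 or 14 with each sample's value, and in each further cell cycle list the gene with the highest mean. Values of each sample for other members, and other genes called, were chosen after the values were seen. Replicates are separate rats. Alternatives were all 16 samples, the 2 groups alone, other filters, a pseudocount of 0.1, quantile normalization, TPM scaling, eBayes without trend, a replicate block and each sample left out. Promoter windows came from RefSeq (GRCr8).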

Additional observations from a re-analysis of the deposited data

Results flagged for a closer look

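Of 180 groups of 4 samples (45 members in 4 groups), 12 had a highest or lowest sample whose gap to its neighbour, as a share of the whole range, was above Dixon's critical value for groups of that size, where chance alone gives about 1 in 20, or 9. In TCI day 14 the highest sample was sample 2 for all 5 genes so marked, Mcm7 (0.927), Ube2c (0.845), Cdca8 (0.837), Cdk1 (0.831) and Ccnb1 (0.830). In TCI day 7 the lowest sample was sample 3, which the main model leaves out, for Ccne1 (0.957) and E2f1 (0.933). Day 1 had sample 3 highest for Top2a (0.961) and Mcm3 (0.839) and sample 2, also left out, highest for Tk1 (0.865). In sham, sample 3 was highest for Ccna2 (0.833) and sample 1 lowest for Melk (0.864). What set these samples apart was not tested.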

How the results depend on the processing

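At the thresholds of the study, 0 members were called under all alternatives and with each sample left out, in all 5 comparisons. At an adjusted p of at most 0.05 (limma), the members called on day 7 against sham (7) were 14 with only the 2 groups and 2 with quantile normalization, and 1 to 22 with single samples left out. On day 14 (2) they were 0 with all 16 samples, with only the 2 groups and with quantile normalization, 1 with no filter, and 0 to 6 with samples left out. Between day 7 and day 1 (2) they were 10 with only the 2 groups, 6 with a pseudocount of 0.1, and 0 to 21 with samples left out, and between day 14 and day 7 (0) 0 to 1. The further cell cycle genes called on day 7 (7) were 17 with only the 2 groups and 1 to 19 with samples left out. On day 14 (3) they were 0 with only the 2 groups, 5 with a pseudocount of 0.1, and 0 to 9 with samples left out. Between day 7 and day 1 (1) they were 4 with all 16 samples, 3 with only the 2 groups, 2 with a pseudocount of 0.1, 0 with no filter or quantile normalization, and 0 to 11 with samples left out, and between day 14 and day 7 (0) 0 to 1. The replicate block gave 6 members on day 7, 2 on day 14 and 1 between day 7 and day 1, and 6 further genes on day 14. Samples of the same number shared only that number (24 pairs, correlation of their deviations -0.246 to 0.274, with 2 over 0.1). The median log2 fold change of the members was 0.663 on day 7 and 0.789 between day 7 and day 1 with a pseudocount of 0.1. On day 1 it was -0.100 with that pseudocount, -0.073 with TPM and 0.040 with the block. With samples left out the median was -0.055 to -0.025 on day 1, 0.229 to 0.519 on day 7, 0.084 to 0.306 on day 14, 0.277 to 0.533 between day 7 and day 1 and -0.319 to -0.048 between day 14 and day 7. Over all genes, 2198 were higher and 473 lower on day 7, and 1474 and 2386 with quantile normalization. The causes were not tested.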
